A study of Mus musculus with 8 samples.

Results

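Induction of the NF-kB subunit p52 in the airway epithelium was compared with its absence in lungs inflamed by LPS, on 4 of the 8 arrays of a mouse lung study. The comparison set the 2 arrays of CCSP-p52 mice given dox and LPS against the 2 arrays of WT mice given dox and LPS, over 18820 genes, and asked first of each gene whether both CCSP-p52 pools lay on the same side of both WT pools. All mice were of the FVB strain, aged 8 to 12 weeks, and both genotypes drank dox at 2 g/L with 2% sucrose for 1 week. LPS, a cell wall component of Gram-negative bacteria, was given into the trachea 48 hours before the lungs were taken, and the sources used here do not state the dose. CCSP-p52 mice carry CCSP-rtTA and CCSP-tTS/(tet-O)7-FLAG-p52, which place FLAG-tagged murine p52 under dox in cells that use the club cell secretory protein promoter, and WT mice were littermates without that genotype. The sources used here do not state whether the littermates carried CCSP-rtTA alone. Each array read whole lung RNA pooled from 3 mice, with the sexes labelled as evenly mixed in each group, so that n = 2 pools and 6 mice per group and the error is that between pools. The other 4 arrays, of both genotypes on dox without LPS, entered the same model and gave the p52 difference in lungs that had no LPS.

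p52 is the processed form of p100, the product of Nfkb2, and in the noncanonical NF-kB pathway it usually binds DNA together with RelB. It has no transactivation domain of its own, so that its pairs with RelB or with the coactivator Bcl3 can raise transcription and its homodimers can hold it down. In the lung LPS sets off the canonical pathway, in which RelA and p50 drive cytokines, chemokines and adhesion molecules that draw in neutrophils and monocytes, and Nfkb2, Relb and several inhibitors are themselves targets of that pathway.

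The deposited values were log2 expression, normalized between arrays, and differences are given as logFC, CCSP-p52 minus WT, with the standard error (SE) of a limma model that pooled the spread of all 4 groups. The medians of the arrays lay between 7.48 and 7.54. Higher or lower at the cut-off means that a gene passed 2 limits: its logFC was at least 0.41 in size and its unadjusted p at most 0.05, as the study's logFC ranking and level of significance had them. Precision is limited by the number of arrays. Over all genes the median SE was 0.129, and the smallest p of an exact two-sided permutation test is 0.33 for groups of 2 pools. The lungs showed lung markers on every array, with Sftpc of alveolar type II cells at 13.03 to 13.97, Scgb1a1 of club cells at 13.26 to 13.67 and Pecam1 of endothelium at 11.42 to 12.04 on the 4 LPS arrays. On bulk RNA, fewer cells of a type and less RNA per cell cannot be told apart.

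Both second LPS pools stood apart from the first ones. WT LPS pool 2 had high levels of genes that mark striated muscle or squamous epithelium: Acta1, skeletal muscle actin, was at 11.97 there and at 8.06 to 8.73 on the other 7 arrays, and Krt13, a keratin of squamous epithelium, was at 11.71 against 6.19 to 6.46. CCSP-p52 LPS pool 2 held less of many transcripts that mark inflamed lung, with the cytokine gene Il6 at 6.73 against 8.09 to 9.41 on the other 3 LPS arrays and Tnf at 9.77 against 11.01 to 11.88. The correlation over genes was 0.995 between the 2 first pools, 0.985 between the WT pools and 0.980 between the CCSP-p52 pools. Between the pools of 1 group, 260 genes differed by over 1 log2 unit in the WT LPS group and 654 in the CCSP-p52 LPS group, against 17 for each of the groups without LPS. Of the sex-linked genes, Xist was at 10.74 and 10.92 in the WT LPS pools and at 11.16 and 11.29 in the CCSP-p52 LPS pools, while the Y-linked genes Kdm5d, Uty and Eif2s3y overlapped between the genotypes.

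**Figure D1:**
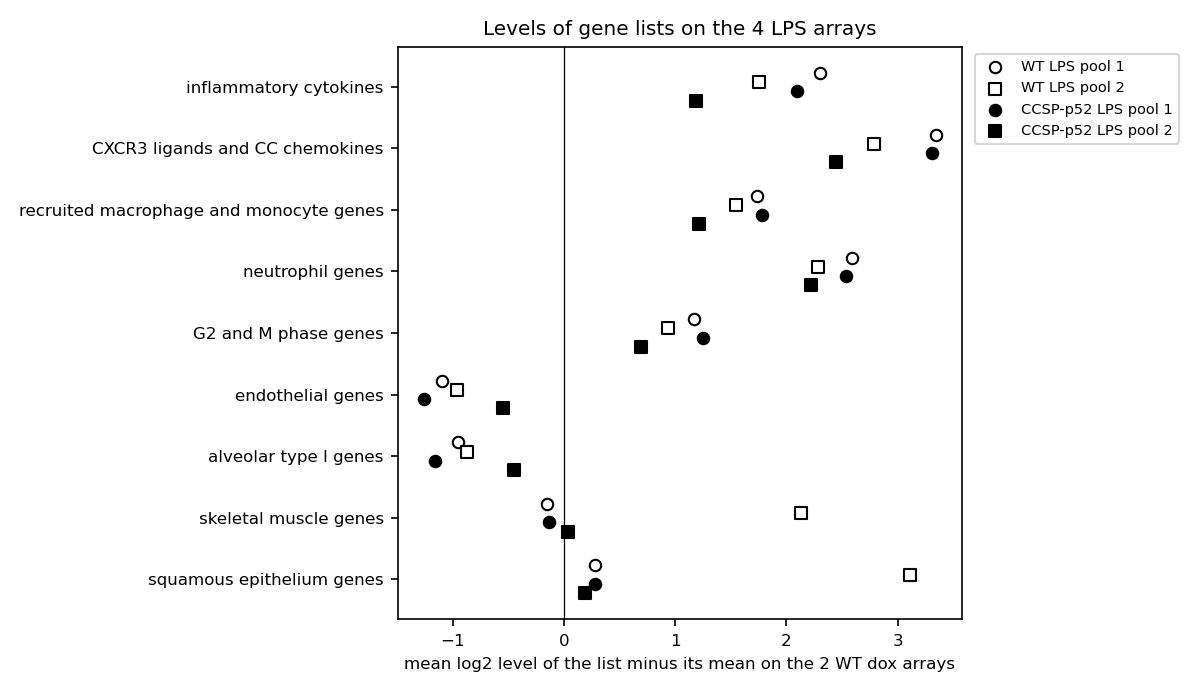
Mean log2 level of 9 gene lists on each of the 4 LPS arrays, given as the difference from the mean of the 2 WT dox arrays (horizontal axis). Open symbols are WT and filled symbols CCSP-p52, circles are pool 1 and squares pool 2. The skeletal muscle and squamous epithelium lists stood 2.13 and 3.11 above the WT dox mean in WT LPS pool 2 and between -0.15 and 0.28 in the other 3, and CCSP-p52 LPS pool 2 was the lowest of the 4 for inflammatory cytokines, 1.19 above the WT dox mean.

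With LPS no gene passed Benjamini-Hochberg adjustment (0% of 18820 genes, limma, smallest adjusted p = 0.72), while 1273 genes (6.76%) had an unadjusted p under 0.05. With 1 LPS pool left out, a group holds a single pool that adds no spread to the error. Without a first LPS pool that single pool is one of the second pools, which stood apart. Counts that pass adjustment in such fits are therefore no evidence of a p52 difference. At the cut-off 183 genes were higher (0.972% of the genes tested) and 205 were lower (1.09%), with a median logFC of 0.50 and -0.49. Of these, 12 were higher and 8 lower by at least 1. All 183 were above and all 205 below by position of the pools, where 2884 of all genes (15.3%) had both CCSP-p52 LPS pools above both WT LPS pools and 3004 (16.0%) had both below. A gene at the cut-off was therefore never one in which the pools of the genotypes overlapped. The p of the model rests on the spread of these same pools. Their position is thus tied to the call and adds no separate support to it.

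The size of the difference was not shared by the pool numbers. The difference of the first pools exceeded 1 in size for 30 genes and that of the second pools for 323, with a standard deviation over genes of 0.211 and 0.388. Across genes, which are not independent replicates, the 2 differences correlated at r = 0.023, and 54.7% of genes had the same sign in both. Only Nnat, Nup62cl, Saa4 and an immunoglobulin kappa variable segment differed by more than 1 the same way in both, and they were named for that after their values were seen. Of the 183 higher genes, 36 kept the cut-off with each of the 8 arrays left out in turn, and of the 205 lower genes 35 did. Without both second LPS pools, where the spread comes from the arrays without LPS alone, 80 of the 183 and 81 of the 205 kept it.

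**Figure D2:**
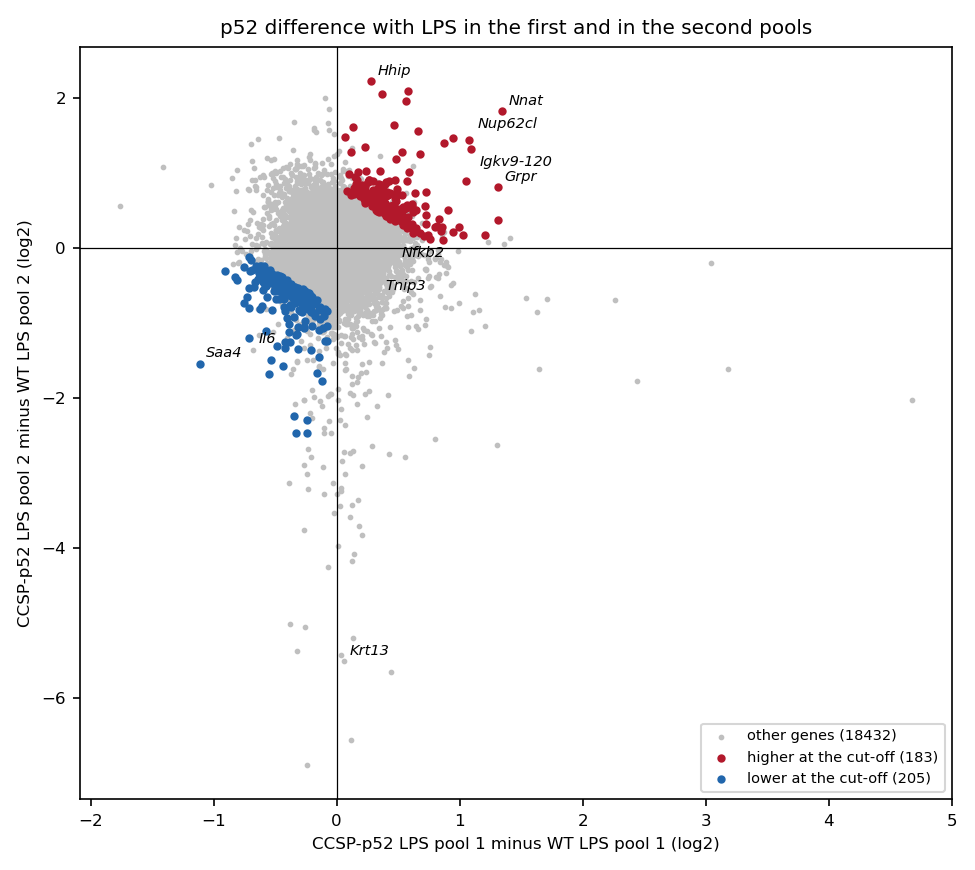
Difference CCSP-p52 LPS minus WT LPS in the first pools (horizontal axis) against that in the second pools (vertical axis), both in log2 units, with 1 point for each of the 18820 genes. Red points are the 183 genes higher and blue points the 205 genes lower at the cut-off. The cloud is taller than it is wide (standard deviation 0.388 against 0.211), Nnat, Nup62cl and an immunoglobulin kappa variable segment lie past 1 on both axes and Saa4 past -1 on both, and Krt13 lies at 0.06 on the horizontal axis and at -5.52 on the vertical one.

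Nfkb2, the gene of the transgene's product, did not separate the genotypes in LPS lungs. Its level was 10.83 and 10.56 in the WT LPS pools and 11.28 and 10.53 in the CCSP-p52 LPS pools. CCSP-p52 pool 1 was the highest of the 4 and CCSP-p52 pool 2 the lowest, so that the groups overlapped. The logFC was 0.21 (SE 0.23), and with CCSP-p52 LPS pool 1 left out it was -0.16, against 0.59 when pool 2 of that group was left out. Without LPS both CCSP-p52 pools (10.20 and 10.33) lay above both WT pools (9.51 and 9.58). The test of the change of the p52 difference with LPS gave -0.51 (SE 0.33, unadjusted p = 0.17, limma). The sources used here do not say where in Nfkb2 the probes lie or if they detect the transgene, so that these values are no check of the transgene in LPS lungs.

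Nup62cl had the clearest difference between the genotypes in both states of the lung. Its name marks it as similar to Nup62, a gene of the nuclear pore. In LPS lungs each WT pool was at 6.32 and the CCSP-p52 pools were at 7.40 and 7.76, which gave a logFC of 1.26 (SE 0.14, 2.39-fold, unadjusted p = 4.6e-05, adjusted p = 0.72, limma). The CCSP-p52 pools stood over 1 log2 unit above WT pools that hardly differed from each other. Without LPS it was at 6.74 and 6.58 in WT and at 7.93 and 7.77 in CCSP-p52, a logFC of 1.19 (SE 0.14). The p52 difference with LPS minus that without LPS was 0.07 (SE 0.20, 95% interval -0.40 to 0.54).

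As many genes, 6, were at the cut-off in both states with opposite signs as with 1 sign. The 6 with 1 sign were all higher in CCSP-p52 lungs. Beside Nup62cl these were Gpx2, a glutathione peroxidase of epithelia, the imprinted gene Phlda2, the neuronal gene Nexmif, the chloride channel gene Cftr and the vesicular amine transporter gene Slc18a1. Without LPS 107 genes (0.569%) were higher and 31 (0.165%) lower at the cut-off, and the 2 comparisons share no array. Phlda2 was at 7.45 and 7.58 in the WT LPS pools and at 8.09 and 8.32 in the CCSP-p52 LPS pools, a logFC of 0.69 (SE 0.11), and at 0.48 (SE 0.11) without LPS. Its genotypes did not overlap in either state, and no single array decided its call. Gpx2 was at 8.75 and 9.75 in the WT LPS pools and at 10.07 and 10.13 in the CCSP-p52 LPS pools, a logFC of 0.85 (SE 0.30), of which 0.35 was left without WT LPS pool 1. Cftr was at 8.21 and 8.29 against 8.47 and 9.20, a logFC of 0.59 (SE 0.22) that was 0.23 without CCSP-p52 LPS pool 2. Both thus rested on 1 pool for much of their size. Nexmif (0.60) and Slc18a1 (0.47) were at 0.31 and 0.30 without CCSP-p52 LPS pool 2.

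p52 binds DNA at kappa B sites, and the promoters of 4 genes that passed the cut-off in all 8 fits with 1 array left out are shown for their letters: Nup62cl, Nnat and Phlda2, which hold a match, and Grpr, a receptor gene described further on, which holds none. Each is a RefSeq promoter of build GRCm38.p6, from 250 bases before to 50 after the start, 5′ to 3′ on the strand of the gene, and capitals mark matches on either strand to 3 G, any 5 bases and 2 C, the general form of a kappa B site, with overlapping matches counted.
Nup62cl promoter, chrX:140062519-140062818, minus strand: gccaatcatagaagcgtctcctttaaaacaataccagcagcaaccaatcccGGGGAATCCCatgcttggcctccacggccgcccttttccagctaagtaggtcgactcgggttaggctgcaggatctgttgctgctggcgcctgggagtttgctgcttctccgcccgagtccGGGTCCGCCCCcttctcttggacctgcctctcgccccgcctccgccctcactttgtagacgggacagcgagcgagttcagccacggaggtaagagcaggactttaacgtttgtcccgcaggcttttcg
Nnat promoter, chr2:157559828-157560127, plus strand: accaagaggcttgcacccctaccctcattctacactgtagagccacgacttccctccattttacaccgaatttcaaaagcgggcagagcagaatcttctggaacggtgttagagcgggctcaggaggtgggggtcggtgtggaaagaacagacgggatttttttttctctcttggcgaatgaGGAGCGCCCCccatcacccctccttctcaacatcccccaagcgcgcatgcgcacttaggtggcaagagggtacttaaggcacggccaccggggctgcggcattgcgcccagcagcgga
Phlda2 promoter, chr7:143502475-143502774, minus strand: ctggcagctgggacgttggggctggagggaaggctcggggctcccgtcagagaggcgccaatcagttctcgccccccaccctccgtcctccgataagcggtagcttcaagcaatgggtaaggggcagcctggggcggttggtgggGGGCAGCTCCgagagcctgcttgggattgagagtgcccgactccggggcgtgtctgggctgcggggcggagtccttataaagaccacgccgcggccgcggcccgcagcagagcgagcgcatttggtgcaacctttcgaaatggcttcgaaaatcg
Grpr promoter, chrX:163549687-163549986, minus strand: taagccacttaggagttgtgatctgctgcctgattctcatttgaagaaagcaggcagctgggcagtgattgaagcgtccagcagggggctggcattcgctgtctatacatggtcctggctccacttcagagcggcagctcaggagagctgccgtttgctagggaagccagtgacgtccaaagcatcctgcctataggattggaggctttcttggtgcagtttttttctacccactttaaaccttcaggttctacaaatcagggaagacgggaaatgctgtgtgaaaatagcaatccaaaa
The Nup62cl window held 5 matches, the Nnat window 1, the Phlda2 window 1 and the Grpr window 0. The windows of Tdo2 and Gpx2, higher genes too, also held 0. Such letters are common: 59% of 18155 promoters of tested genes held at least 1 match. The share was 52.2% of 157 promoters of the higher genes and 43.1% of 167 promoters of the lower genes. Of the genes that passed the cut-off in all 8 fits with 1 array left out, 44% of 25 promoters of higher genes and 44.8% of 29 promoters of lower genes held a match. A match is a description of the sequence and not of binding, which these arrays do not measure.

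The largest difference among the higher genes was that of Nnat, an imprinted gene for a small membrane protein. It was at 8.81 and 8.22 in the WT LPS pools and at 10.15 and 10.05 in the CCSP-p52 LPS pools, a logFC of 1.58 (SE 0.22, unadjusted p = 1.9e-04, limma), and ranged from 1.29 to 1.88 with single arrays left out. Both CCSP-p52 pools stood far above both WT pools. Without LPS the logFC was 0.34 (SE 0.22), and the p52 difference with LPS exceeded that without by 1.24 (SE 0.31, unadjusted p = 0.0054, adjusted p = 0.92, limma).

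Of the 15 largest differences among the higher genes, 10 kept the cut-off in every fit with 1 array left out, with the pool number as a block and without both second pools. Penk, the precursor of the enkephalin peptides, was at 7.31 and 7.46 in WT and at 8.25 and 8.92 in CCSP-p52 (logFC 1.20, SE 0.23). Grpr, the receptor of gastrin-releasing peptide, was at 5.47 and 5.53 against 6.78 and 6.35 (1.07, SE 0.15). Pappa, a protease that cleaves IGF-binding proteins, was at 8.82 and 8.15 against 9.28 and 9.79 (1.05, SE 0.25). All 3, like every gene at the cut-off, had CCSP-p52 pools clear of the WT pools. Without LPS they had a logFC of -0.17, 0.02 and -0.05. Tecrl, an enoyl reductase relative, was higher by 1.14, Tdo2, which starts the breakdown of tryptophan, by 1.12, and the matrix gene Smoc2 by 0.91. Nnat, Nup62cl, the small RNA gene Rny1 (0.97) and the vomeronasal receptor gene Vmn1r23 (0.97) complete the 10.

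Penk, Tecrl, Smoc2 and Rny1 had mean levels in the CCSP-p52 LPS pools closer to those of lungs without LPS than the WT LPS pools had. CCSP-p52 LPS pool 2 was nearer to lungs without LPS over all genes too. Its correlation with WT dox pool 1 was 0.975, against 0.943 to 0.953 for the other LPS arrays. In each of these genes it was the higher of the CCSP-p52 LPS pools. Whether the state of that pool had a part in these differences was not tested. Tecrl was at 8.44 and 8.39 in WT dox lungs, at 6.82 and 6.65 in WT LPS lungs and at 7.69 and 8.06 in CCSP-p52 LPS lungs. Smoc2 was at 9.52 and 9.41, at 8.99 and 8.68 and at 9.52 and 9.96, so that its CCSP-p52 LPS pool 1 was nearer to WT dox lungs than pool 2. Grpr and Pappa were the other way round, with Pappa at 7.24 and 7.18 in WT dox lungs and the CCSP-p52 LPS pools farther from these than the WT LPS pools.

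The other large differences leaned on single pools. Hhip, which binds and restrains hedgehog ligands, was at 9.49 and 8.50 in WT and at 9.77 and 10.73 in CCSP-p52 (logFC 1.25, SE 0.38), and lost the cut-off without WT LPS pool 2 (0.76) and when CCSP-p52 LPS pool 2 was left out. Igfbp3, an IGF-binding protein, was at 11.01 and 9.93 against 11.38 and 12.00 (1.22, SE 0.35), was at 0.68 without WT LPS pool 2 and lost the cut-off when CCSP-p52 LPS pool 2 was left out. Dio2, which activates thyroid hormone, was at 9.45 and 7.70 against 10.01 and 9.67 (1.27, SE 0.50) and kept the cut-off in 1 of the 8 fits. For these 3 the second pools of the genotypes lay far apart and the first pools close together. Fam171b (1.34) and the immunoglobulin kappa variable segment (1.20) passed the cut-off in all 8 fits with 1 array left out but not without both second pools, and the latter belongs to a family of like antibody genes whose probes may share RNA.

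Ftl1, the light chain of the iron store ferritin, had one of the tightest separations. It was at 11.25 and 11.28 in the WT LPS pools and at 11.97 and 11.85 in the CCSP-p52 LPS pools, a logFC of 0.64 (SE 0.09), against -0.05 (SE 0.09) without LPS. Ferritin light chain has many close copies in the genome, which the probe set may also read. Sh3yl1 (0.50), the glypican Gpc4 (0.50), Irak1bp1 (0.49), which encodes a protein that binds the kinase IRAK1, and the ubiquitin ligase relative Rnf217 (0.47) also kept the cut-off in all these fits. With Ftl1 they were named for that after their values were seen.

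**Figure D3:**
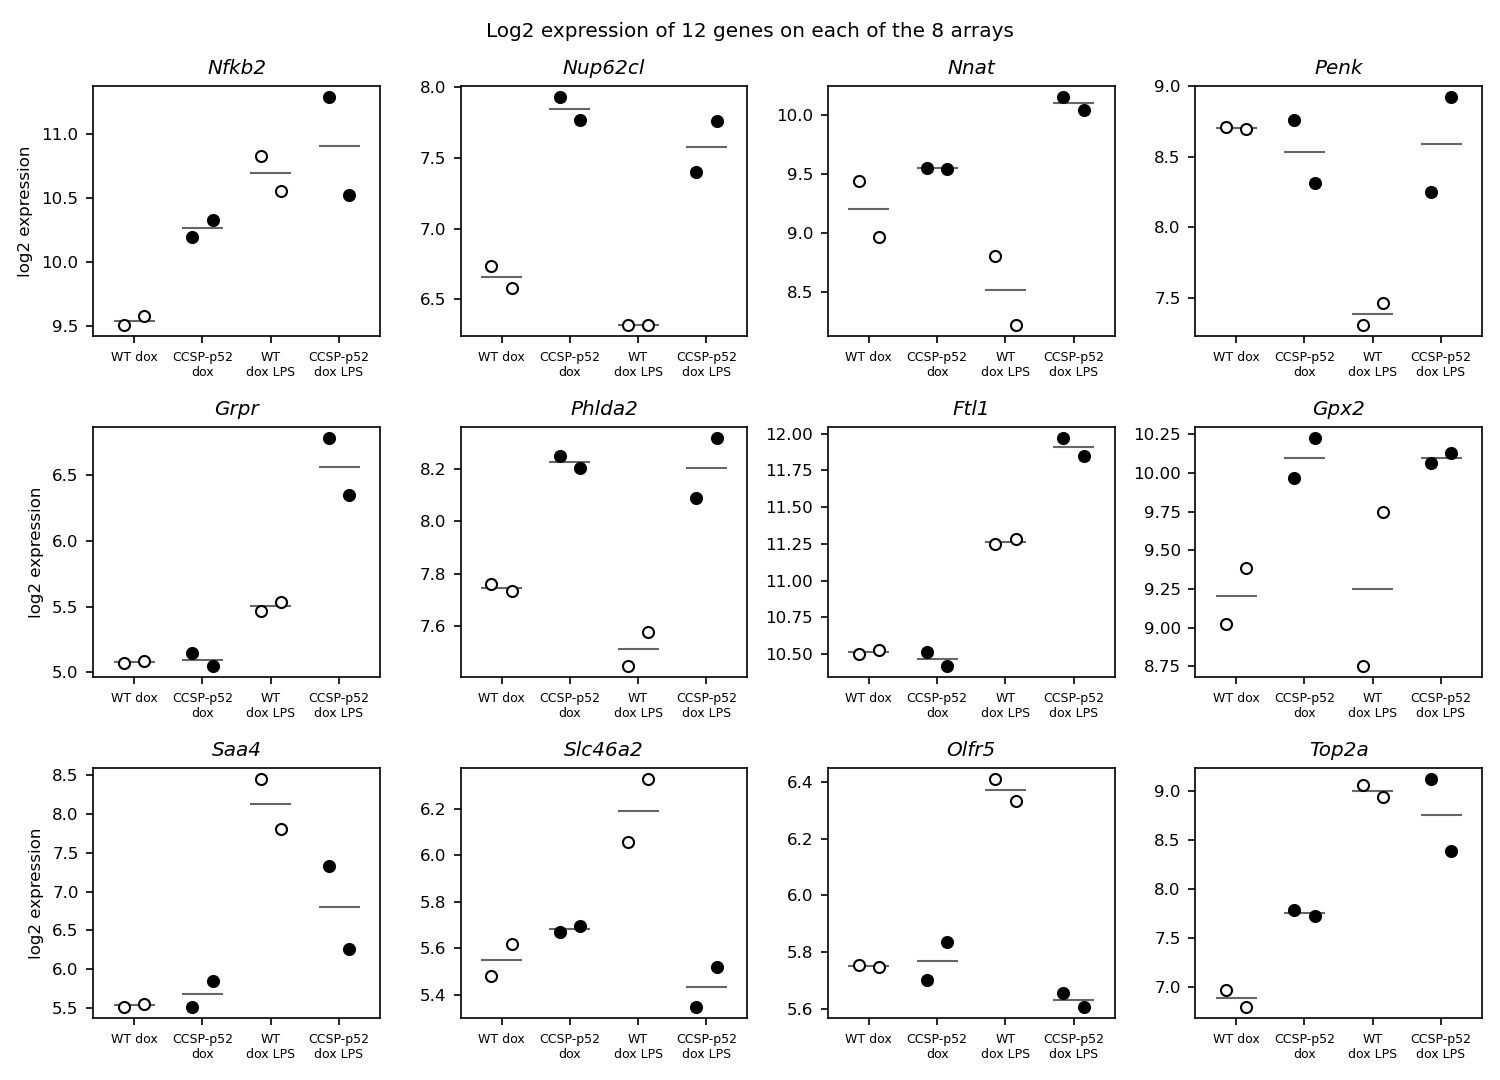
Log2 expression (vertical axes, each with its own range) of 12 genes on each of the 8 arrays by group (horizontal axes). Open points are WT and filled points CCSP-p52, with pool 1 drawn to the left of pool 2 in each group and a bar at their mean. In LPS lungs the genotypes overlap for Nfkb2 and Top2a, the CCSP-p52 pools lie above the WT pools for Nup62cl, Nnat, Penk, Grpr, Phlda2, Ftl1 and Gpx2 and below them for Saa4, Slc46a2 and Olfr5.

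Among the lower genes, Saa4, a constitutive member of the serum amyloid A family of acute phase proteins, had the largest difference that held at the cut-off in all 8 fits with 1 array left out. It was at 8.45 and 7.81 in the WT LPS pools and at 7.34 and 6.26 in the CCSP-p52 LPS pools, a logFC of -1.33 (SE 0.36, unadjusted p = 0.0076, limma). It was at 5.51 to 5.84 in all 4 pools without LPS, so that the CCSP-p52 LPS pools stood between those and the WT LPS pools. Genes of this family are alike in sequence, and the other measured members did not follow: Saa3 was at 13.25 and 13.24 against 13.35 and 12.98 (logFC -0.07), and Saa2 had a logFC of 0.41 with overlapping pools. Itih4, another acute phase protein, was at 11.57 and 11.06 against 10.76 and 10.63 (-0.62, SE 0.23) and was at -0.36 without WT LPS pool 1. Of 12 acute phase genes measured these 2 were lower and none was higher at the cut-off, against 1.09% and 0.972% of all genes. The median was -0.19 against 0.005 over all genes.

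Slc46a2, a solute carrier expressed in thymus, was at 6.06 and 6.33 in the WT LPS pools and at 5.35 and 5.52 in the CCSP-p52 LPS pools (logFC -0.76, SE 0.13). The olfactory receptor gene Olfr5 was at 6.41 and 6.33 against 5.65 and 5.61 (-0.74, SE 0.09). The peroxidase gene Lpo was at 7.23 and 7.04 against 6.40 and 6.66 (-0.60, SE 0.13), and the inflammasome gene Nlrp1a at 5.16 and 5.27 against 4.74 and 4.49 (-0.60, SE 0.12). These 4, named after their values were seen, kept the cut-off in all 8 fits with 1 array left out, with the pool number as a block and without both second LPS pools, as 26 of the 205 lower genes did and 27 of the 183 higher ones. Their levels lay below the array medians. A mean under 6 over the 8 arrays was found for 43 of the 183 higher and 66 of the 205 lower genes, against 17.1% of all genes, and 12.6% of the higher and 10.7% of the lower genes were olfactory, vomeronasal or taste receptors, against 6.34% of all genes.

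Most of the largest differences among the lower genes moved with the markers of squamous epithelium and muscle in WT LPS pool 2. Spink5, a protease inhibitor of skin, was at 6.29 and 8.07 in the WT LPS pools and at 5.96 and 5.60 in the CCSP-p52 LPS pools (logFC -1.40, SE 0.50). The desmosome gene Pkp1 was at 6.80 and 8.63 against 6.55 and 6.33 (-1.27, SE 0.51), and Mybpc1, a myosin-binding protein of skeletal muscle, at 6.73 and 8.69 against 6.38 and 6.45 (-1.29, SE 0.54). In each of them WT LPS pool 2 was high alone, and without it the logFC was -0.51, -0.35 and -0.31. Cpa4, the skin protease gene Klk7, Lypd5, Aox4, the retinol-binding protein gene Rbp2, Olfr767 and the muscle gene Sln shared this order, and WT LPS pool 2 was the highest of all 8 arrays for 13 of the 15 largest differences among the lower genes. Cpa4 (-1.11) and Sln (-0.84) still kept the cut-off without that pool, at -0.51 and -0.46. The part of those transcripts in the lower genes was not tested.

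In 4 others of the 15 CCSP-p52 LPS pool 2 was the lowest LPS pool. Asprv1, a protease of skin and neutrophils, was at 11.36 and 11.58 in WT and at 11.12 and 9.10 in CCSP-p52 (logFC -1.36, SE 0.55). Serpinb2, an inhibitor of plasminogen activators, was at 7.93 and 8.22 against 7.82 and 6.44 (-0.95, SE 0.39), and Il1f6, an IL-1 family cytokine gene, at 8.01 and 7.58 against 7.52 and 6.27 (-0.90, SE 0.38). Without that pool the 3 were at -0.35, -0.26 and -0.27. Capns2 (-0.88, SE 0.24) held at the cut-off in all 8 fits with 1 array left out.

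Of 20 squamous epithelium genes measured, 19 had a negative logFC and none was at the cut-off, and the median was -1.15. The median difference was 0.02 in the first pools and -2.52 in the second. For 16 skeletal muscle genes the median was -1.07, with 0.02 in the first pools and -2.07 in the second. Neither list stood apart in the first pools. Of 14 adipose genes, Pck1 (-0.74), Ucp1 (-0.66) and Plin1 (-0.56) were lower at the cut-off, against 1.09% of all genes. All 3 lost the cut-off without WT LPS pool 2, at -0.33, -0.27 and -0.25.

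No gene of the inflammatory cytokine list was higher at the cut-off in CCSP-p52 lungs, against 0.972% of all genes. At that share a list of 19 genes often holds none, so that this is no result about its members. Of 19 inflammatory cytokines 1, Il17a, was lower at the cut-off, against 1.09% of all genes. The logFC was positive for 2, and the median was -0.37. It was 0.08 with CCSP-p52 LPS pool 2 left out and -0.63 with pool 1 of that group left out. Il6 was at 9.41 and 8.09 in WT and at 8.73 and 6.73 in CCSP-p52, a logFC of -1.02 (SE 0.65) with overlapping pools, and Tnf was at 11.88 and 11.01 against 11.59 and 9.77 (-0.76, SE 0.56). In both genotypes the second pool was the lower one. Il17a, the cytokine of neutrophil recruitment by T cells, was at 7.16 and 6.88 in WT and at 6.58 and 6.48 in CCSP-p52 (-0.49, SE 0.12), and was at -0.35 without WT LPS pool 1. The genes of IL-23 and G-CSF, Il23a (-0.37) and Csf3 (-0.37), had both CCSP-p52 pools below both WT pools without passing the cut-off. Of the 19, 3 lay below in this way, close to the share of all genes that did (16.0%).

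No chemokine of the measured lists was at the cut-off, where 0.972% of all genes were higher and 1.09% lower. At such shares lists of this size, here, above and below, often hold no gene at the cut-off. Its absence is then no result about the members. The 9 neutrophil-attracting chemokines had a median of -0.20 and the 14 CXCR3 ligands and CC chemokines one of -0.23, with 1 and 2 genes positive. Cxcl5, an epithelial neutrophil chemokine, had the largest size among the neutrophil-attracting ones at -0.87 (SE 0.46), with 8.93 and 8.55 in WT against 8.69 and 7.06 in CCSP-p52. The interferon-induced Cxcl10 was at 12.89 and 12.23 against 12.80 and 11.38 (-0.47, SE 0.43). In both the first pools lay close to each other and the second pools farther apart.

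The interferon-stimulated antiviral genes, which cells switch on against viruses, turned sign with the pool number. Their mean level stood 2.08 and 1.74 above the WT dox mean in the WT LPS pools and 2.47 and 1.44 above it in the CCSP-p52 LPS pools, so that the CCSP-p52 pools were the highest and the lowest of the 4. Of 24 measured, 13 had a positive logFC and none was at the cut-off, around a median of 0.02. In the first pools 23 were positive (median difference 0.33) and in the second 3 were (median -0.29). Their median logFC was 0.55 with CCSP-p52 LPS pool 2 left out and -0.53 with pool 1 of that group left out. For 9 interferon-inducible GTPases, which act against microbes inside cells, the median was -0.12, with none at the cut-off.

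The NF-kB subunits and inhibitors showed no call in either direction among 14 measured, with a median of -0.14 and 3 positive. Relb, the usual partner of p52, was at 9.24 and 8.71 in WT and at 9.09 and 8.59 in CCSP-p52 (logFC -0.14, SE 0.21). Bcl3, which binds p52 homodimers, had a logFC of 0.03 (SE 0.26), and Rela one of 0.12 (SE 0.12). Nfkbia, the inhibitor IkB alpha, was at -0.21 (SE 0.20). All of them had overlapping pools. Leaving out CCSP-p52 LPS pool 2 gave a median of 0.11 for the 14, and leaving out pool 1 of that group gave -0.40. Among 14 feedback regulators, of which none was at the cut-off, Tnip3, an inhibitor of NF-kB signalling, was at 10.48 and 10.03 in WT LPS lungs and at 10.83 and 9.39 in CCSP-p52 LPS lungs (-0.15, SE 0.43). Its genotypes overlapped with LPS, whereas without LPS the CCSP-p52 pools lay above the WT pools by 2.11 (SE 0.43).

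Markers of immune cells had overlapping pools in most cases. The neutrophil genes S100a8, S100a9 and Csf3r had a logFC of -0.09 (SE 0.34), -0.04 (SE 0.21) and -0.45 (SE 0.35). The macrophage genes Cd68, Marco and Csf1r were at -0.36, 0.04 and -0.24, and the T cell gene Cd3e at -0.46. The lists gave no gene at the cut-off among 18 neutrophil, 12 alveolar macrophage, 16 recruited macrophage and monocyte, 17 T and NK cell and 13 B cell genes. Their medians were -0.07, 0.04, -0.20, -0.13 and -0.11. For the recruited macrophage and monocyte genes the median difference was -0.03 in the first pools and -0.50 in the second.

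**Figure D4:**
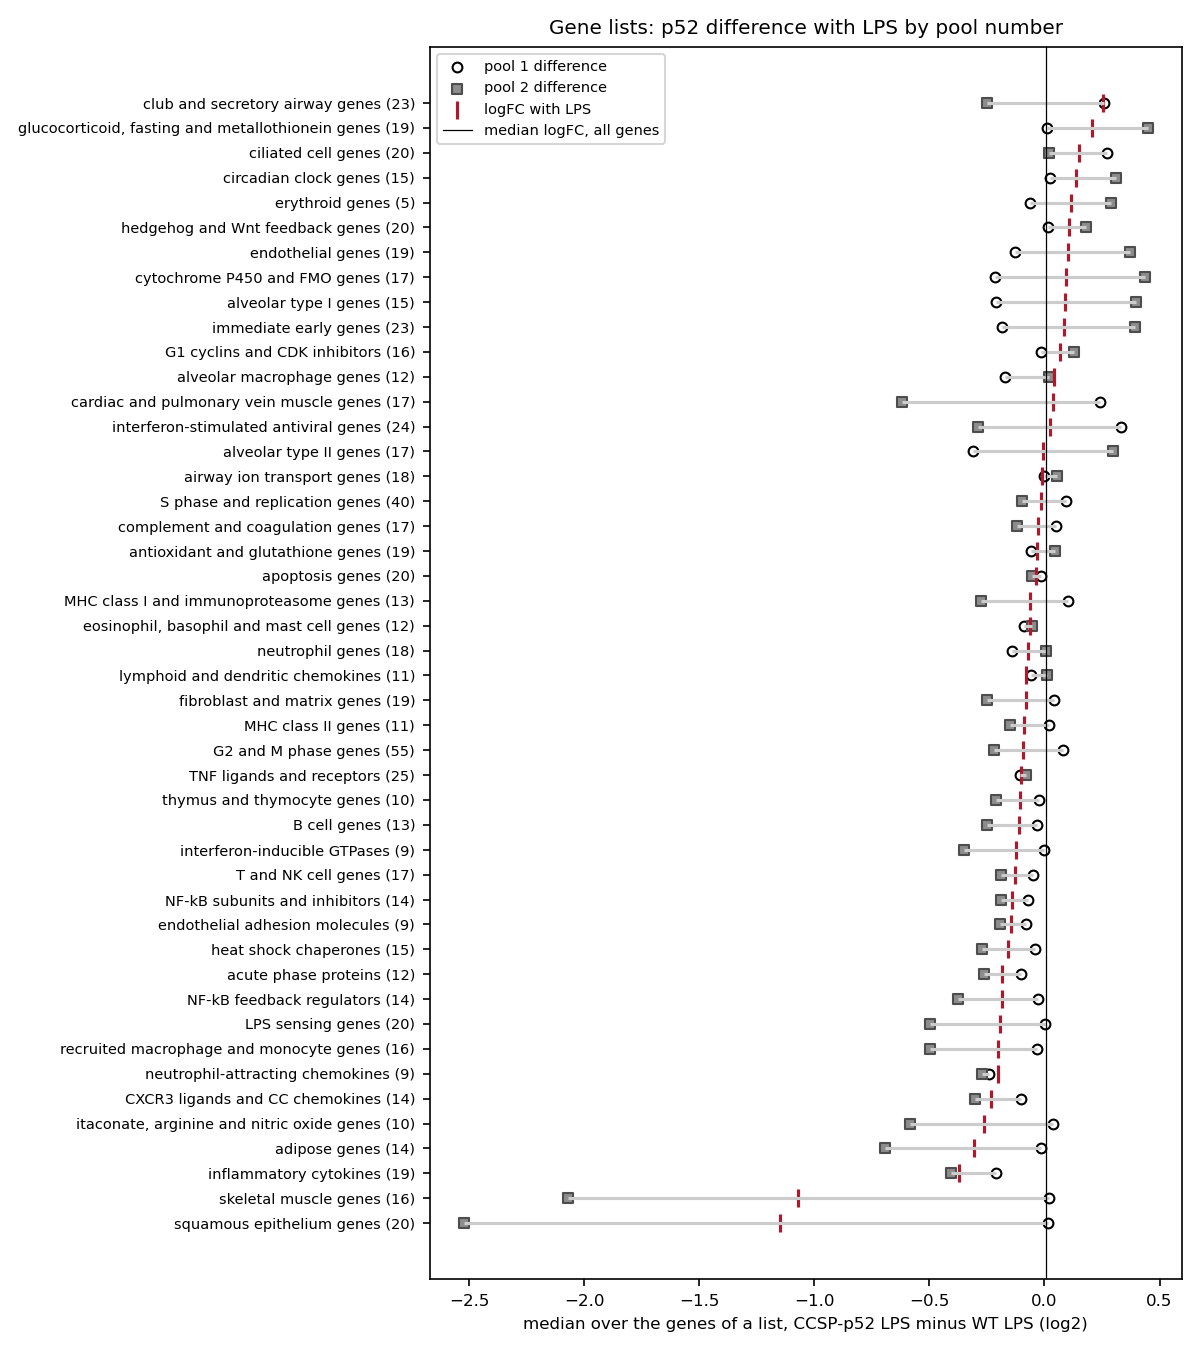
Median over the genes of each of 46 lists (vertical axis, with the number of genes measured) of the difference CCSP-p52 LPS minus WT LPS in log2 units (horizontal axis). Open circles are the first pools, grey squares the second pools, red ticks the logFC of the model and the black line the median logFC of all genes, 0.005. The first pools lie between -0.31 and 0.34 for all of these lists, and the second pools reach -2.52 for squamous epithelium and 0.45 for glucocorticoid, fasting and metallothionein genes.

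Genes of endothelium and alveolar epithelium differed in sign between the pool numbers. All 19 endothelial genes had a positive difference in the second pools (median 0.37) and a negative one in the first (median -0.13), with a logFC median of 0.10 and no gene at the cut-off. The 15 alveolar type I genes had medians of 0.40 in the second and -0.21 in the first pools, with 15 and 2 positive. For 17 alveolar type II genes it was 0.30 and -0.31. These lists changed sign with the pool number, so that neither sign describes the genotype. Of 23 club and secretory airway genes, the cells in which the transgene is placed, none was at the cut-off. Their median was 0.26 in the first and -0.25 in the second pools, the opposite order. The logFC median of 0.25 was -0.23 without WT LPS pool 1 and 0.58 without WT LPS pool 2. Scgb3a1, a secretoglobin of the larger airways, was at 9.61 and 12.91 in the WT LPS pools and at 12.65 and 12.71 in the CCSP-p52 LPS pools, so that the WT pools lay farther from each other than from the CCSP-p52 pools on average. The 20 ciliated cell genes had medians of 0.27 in the first and 0.02 in the second pools and a logFC median of 0.15, with none at the cut-off.

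The median of 18 airway ion transport genes was -0.01, and by position of the pools 3 were above and 3 below. At the cut-off 3 were higher and none lower, against 0.972% and 1.09% of all genes. These were Cftr, Scnn1a, the alpha subunit of the epithelial sodium channel (11.98 and 11.88 against 12.13 and 12.68, logFC 0.47, SE 0.18), and Slc12a2, a chloride-loading cotransporter (10.21 and 10.38 against 10.44 and 10.98, 0.42, SE 0.17). Each of the 3 had CCSP-p52 LPS pool 2 as its highest pool and lost the cut-off without it. The complement gene C2 was at 9.58 and 9.37 in WT and at 9.96 and 10.21 in CCSP-p52 (0.61, SE 0.14), the only one of 17 complement and coagulation genes at the cut-off, and kept it with each array left out, though not without both second pools. Jund, an AP-1 subunit and the only one of 23 immediate early genes at the cut-off, was at 10.43 and 10.38 against 10.75 and 10.89 (0.42, SE 0.10), and missed the cut-off when pool 2 of either LPS group was left out.

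Beside squamous epithelium, the antioxidant and glutathione genes were the only one of the 49 lists whose mean level lay on one side in LPS lungs. The CCSP-p52 pools were 0.39 and 0.37 above the WT dox mean and the WT LPS pools 0.36 and 0.35, a narrow separation in a list that holds Gpx2, and the median logFC of the 19 genes was -0.03. Of 19 glucocorticoid, fasting and metallothionein genes 17 had a positive logFC and none was at the cut-off, and the median was 0.21. That median was 0.01 in the first pools and 0.45 in the second. Mt1 and Mt2, metallothioneins that bind zinc, had CCSP-p52 LPS pools above the WT LPS pools by 0.21 (SE 0.10) and 0.14 (SE 0.09) on average.

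Cell cycle genes did not separate the genotypes with LPS. Of the 55 G2 and M phase genes measured, none was at the cut-off and 15 had a positive logFC, with a median of -0.09. Without LPS all 55 were positive and 23 were higher at the cut-off, against 0.569% of all genes, and the median was 0.44. The study had reported cell cycle processes as over-represented on these arrays, and the cell cycle lists were chosen with earlier results known. Their direction without LPS is thus not independent evidence. Top2a, the topoisomerase that untangles replicated DNA, was at 9.06 and 8.94 in the WT LPS pools and at 9.12 and 8.39 in the CCSP-p52 LPS pools (-0.24, SE 0.22), and Ccna2, the cyclin of S and G2 phases, at 9.51 and 9.27 against 9.59 and 8.90 (-0.15, SE 0.23). For both, CCSP-p52 pool 1 was the highest of the 4 and CCSP-p52 pool 2 the lowest. The p52 difference with LPS minus that without was -1.12 (SE 0.31, unadjusted p = 0.0090) for Top2a and -1.01 (SE 0.33, unadjusted p = 0.018) for Ccna2, with an adjusted p of 0.92 for each (limma). The study had picked both from genes higher with p52 on these same arrays, which favours a negative value, so that neither is an independent test. The G2 and M phase median with LPS was 0.19 when CCSP-p52 LPS pool 2 was left out and -0.37 when pool 1 of that group was. For 40 S phase and replication genes it was -0.01 with LPS and 0.21 without, and for 15 heat shock chaperones -0.16 and 0.26. Another list holds only some of the genes that the study named as p52-associated in dox lungs, those that its supplement gives as text. This list does not stand for the study's whole set. It was chosen on these arrays, so that its direction without LPS is not independent evidence. Of its 22 measured members none was at the cut-off with LPS, 8 were positive, and the median was -0.08 against 0.56 without LPS.

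The p52 differences with and without LPS had little in common over the genes. They correlated at r = -0.093 across genes, and 43.5% of genes had the same sign. Of the 107 genes higher at the cut-off without LPS, 50 were positive with LPS, with a median of -0.04, and of the 31 lower ones 13 were negative. The difference between the 2 states had an unadjusted p of at most 0.05 for 932 genes (4.95%), and for none after adjustment (smallest adjusted p = 0.92, limma).

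Among genes with the pools on one side in both states, the largest positive differences between the states were those of Olfr1049 (1.31), Rny1, Nnat (1.24), the amine oxidase gene Aoc1 (1.14), the airway gene Lypd2 (1.02) and the transcription factor gene Gata3 (0.99). Gata3 was at 10.19 and 9.75 in WT dox, at 9.69 and 9.49 in CCSP-p52 dox, at 8.44 and 8.00 in WT LPS and at 8.51 and 9.16 in CCSP-p52 LPS lungs. The order of the genotypes was thus opposite in the 2 states. Gata3 was picked for a large difference between the states, and with LPS its nearest pools were only at 8.44 and 8.51. In the other direction the largest 6 included the heat shock gene Hsph1, which was at 9.33 and 9.28 in WT LPS and at 9.16 and 8.67 in CCSP-p52 LPS lungs and had a difference between the states of -1.08 (SE 0.35), and the steroid dehydrogenase gene Hsd17b2 (-1.06, SE 0.39). Hsph1 is also among the genes that the study named as p52-associated on these arrays, so that its value is no independent test.

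**Figure D5:**
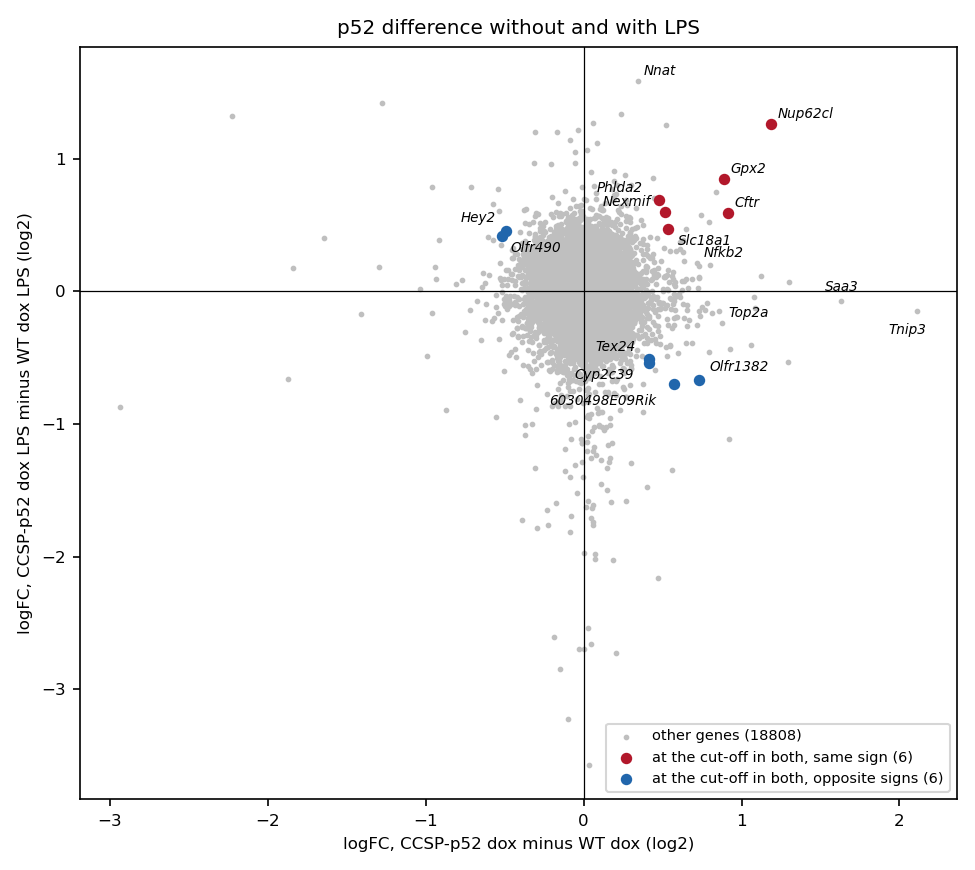
logFC of CCSP-p52 against WT without LPS (horizontal axis) and with LPS (vertical axis), both in log2 units, with 1 point for each of the 18820 genes. Red points are the 6 genes with 1 sign that were at the cut-off on both axes, and blue points the 6 genes at the cut-off with opposite signs. Nup62cl lies at 1.19 and 1.26, while Tnip3 and Saa3 lie far to the right at 2.11 and 1.63 with a value near 0 on the vertical axis.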

How the data were processed

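Whole lung RNA, pooled from 3 mice per array, was hybridized to Affymetrix Mouse Gene 1.0 ST arrays. The deposited log2 values were made by the authors with the Robust Multichip Average (RMA) of the R package oligo. Background was corrected, all arrays were brought to 1 distribution and the probes of a probe set were combined, so that a shift of all RNA alike would not be seen. Scanner files were not used here. The submitters' processing notes name RMA and limma 3.20.8. Gene symbols came from the platform's probe table, and whether that table is of the 1.0 version of the array was not settled here. Of 35556 probe sets 21218 had 1 symbol, 1881 had several and 12457 none. Probe sets with 1 symbol were kept, and for 1386 genes with more than 1 the one with the highest mean over the 8 arrays was taken, which left 18820 genes.

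A linear model with 4 group means over all 8 arrays was fitted with limma 3.58.1 in R 4.3.3, with empirical Bayes moderation, and Benjamini-Hochberg adjustment ran over all genes. The study's own model held p52 and LPS as factors, with no statement of an interaction. The logFC it lists for Nfkb2 and Tnip3 match the p52 differences without LPS found here. An additive model is an alternative here and gave 0.47 for Nfkb2. The steps were tested on simulated data. The replicates are pools of separate mice. Pools with the same number deviated together from the means of their groups, with correlations of 0.13 to 0.36 in the 6 pairs of groups, a pairing that rests on the values alone. The reported fit has no block, and a fit with the number as a block is an alternative. The 49 gene lists, of which 826 of 910 entries were measured, the genes named and the comparison itself were chosen with earlier results of these data known. Genes were named by rule: Nfkb2, Ccna2 and Top2a, the 15 largest differences each way at the cut-off with the pools on one side, genes at the cut-off with 1 sign in both states, the 6 largest differences between the states each way, up to 4 members of each list by p with any at the cut-off, and cell type markers. Promoters came from RefSeq (GRCm38.p6) and were matched by symbol for 14749 of the genes.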

Additional observations from a re-analysis of the deposited data

Results flagged for a closer look

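For 6 genes the p52 difference was at the cut-off both with and without LPS, with opposite signs, and they are listed because the effects of the same contrast differed between the 2 states. The difference was tested as the interaction of the limma model, and none passed adjustment over all genes (adjusted p = 0.92 for each). The p52 difference with LPS minus that without was 0.95 for Hey2, a Notch target gene, and 0.93 for the olfactory receptor gene Olfr490, both higher with LPS and lower without. It was -1.40 for Olfr1382, -1.28 for 6030498E09Rik, -0.95 for the cytochrome P450 gene Cyp2c39 and -0.92 for Tex24, which were lower with LPS and higher without. Hey2 was at 8.30 and 8.21 in WT dox, at 7.92 and 7.62 in CCSP-p52 dox, at 7.33 and 7.47 in WT LPS and at 7.67 and 8.05 in CCSP-p52 LPS lungs. Of the 6, Tex24 alone kept the cut-off with LPS in each fit with 1 array left out. The others besides Hey2 were at low levels on these arrays. Groups of 2 arrays are too small to look for single outlying arrays by rule.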

How the results depend on the processing

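The counts moved with the model, the thresholds and the LPS pools used. The 183 higher genes were 43 in the additive model, 117 with the 4 LPS arrays alone, 12 at a logFC of at least 1, 74 at an unadjusted p of at most 0.01, 378 without both second LPS pools and 1528 without both first. The 205 lower genes were 9 in the additive model, 8 at a logFC of at least 1, 91 at a p of at most 0.01, 135 among genes with a mean of at least 6, 134 after renewed quantile normalization, 398 without both second LPS pools and 1358 without both first. The count that passed adjustment was 1 in the additive model and 681 without both first pools, and 574 genes had a higher p52 difference with LPS than without when both second pools were left out, against 235. Fits without both pools of a number take the spread from the arrays without LPS alone. With single arrays left out, the higher genes numbered 154 to 1582, the lower genes 183 to 1214 and those passing adjustment 0 to 336, the highest without CCSP-p52 LPS pool 1, and the interaction counts were 153 to 1673 higher and 201 to 1336 lower. Fits with 1 LPS pool left out hold a single pool in a group, which adds no spread. Their counts that pass adjustment are no evidence of a p52 difference. Stricter thresholds call fewer genes by construction. For the other counts that moved, the cause was not tested.

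Nfkb2 (0.21) was at 0.47 in the additive model and at 0.46 without both second LPS pools, each at the cut-off, and at -0.030 without both first ones. It ranged from -0.16 to 0.59 with single arrays left out. In the additive model, which averages the states, Hey2 (-0.017), Olfr490 (-0.048) and Olfr1382 (0.031) turned sign. With the pool number as a replicate block 199 genes were higher, 176 of them among the 183, and 256 were lower, 200 of them among the 205. No gene passed adjustment with the block, and 1608 had an unadjusted p under 0.05. The block moved no count by over 1.5 times and ended the call of Aoc1. Of 5096 alternative values for 256 named genes, 295 lost the cut-off in the same direction, 3 gained it and 165 moved beyond the spread of the pools. Of 980 alternative medians of lists, 42 did. Signals near background limit what the low chemosensory and miRNA genes can show.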
